A study of Homo sapiens with 2 samples.

Results

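The miR-200 family comprises 5 hairpins, miR-200a, miR-200b, miR-200c, miR-141 and miR-429, whose mature arms were followed here in K562 cells. The members were taken by name: all 9 listed arms had an entry among the 2218 mature miRNAs of the table, and all 9 had at least 1 read in each library. K562 is a human erythroleukaemia line that grows in suspension. One library came from K562 cells transduced with a lentivirus that overexpresses QKI5, a form of the RNA-binding protein Quaking that resides in the nucleus, and 1 from K562 cells transduced with a GFP lentivirus. Both were cultured in the same medium, and the labels name neither the promoter of the vectors nor the number of clones. The comparison asks how far the level of each member in cells with added QKI5 departs from that in GFP cells. With 1 library in each group, no difference below has a replicate check, and the intervals express counting error alone.

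The family is known as a guardian of the epithelial state. Its members repress the transcription factors ZEB1 and ZEB2, which in turn repress the genes of the family, and loss of the family accompanies the epithelial-mesenchymal transition. QKI messenger RNA is itself a known target of the family in epithelial cells, as it is of miR-375. The family is usually scarce in blood cells. A miRNA finds its targets mainly through its seed, bases 2 to 8 from the 5′ end, and the 3p arms of the family carry one of a pair of seeds that differ at a single base.

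The mature sequences are shown because the family divides in one way by seed and in another by genomic cluster. They are RefSeq's, on the plus strand of GRCh38.p14, 5′ to 3′, with the seed in capitals. RefSeq gave a sequence for 8 of the 9 members, and miR-141-5p is named only. The first 3 lines share one seed and the next 2 share the other, and the last 3 are 5p arms.
hsa-miR-200c-3p: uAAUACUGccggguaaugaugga
hsa-miR-200b-3p: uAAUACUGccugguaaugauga
hsa-miR-429: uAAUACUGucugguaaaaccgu
hsa-miR-141-3p: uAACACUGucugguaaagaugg
hsa-miR-200a-3p: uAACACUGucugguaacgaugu
hsa-miR-200c-5p: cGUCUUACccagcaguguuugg
hsa-miR-200b-5p: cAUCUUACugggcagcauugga
hsa-miR-200a-5p: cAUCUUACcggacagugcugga

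Between miR-200c-3p and miR-141-3p the only base of the seed that differs is U4C, counted from 1 at the 5′ end with the base of miR-200c-3p first. Outside the seed these miRNAs differ at 3 further bases, C9U, G11U and U17A. The closest relatives share a seed and lie on different chromosomes. miR-200a-3p and miR-141-3p are identical over their first 16 bases and differ at 2 of 22 (C17A and U22G). miR-200b-3p and miR-200c-3p are identical over their first 10 bases and differ at 2 of the 22 compared (U11G and A22G). The assignment of reads short enough to match both miRNAs of such a pair (not given in the sources used here) is unknown, so the separate values within each pair carry that uncertainty.

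The hairpins form 2 clusters. On chromosome 12 the mature miR-200c-3p lies at chr12:6963742-6963764 and miR-141-3p begins 413 bases downstream, at chr12:6964155-6964176. GENCODE places both hairpins within the long non-coding RNA gene MIR200CHG and outside its exons. On chromosome 1 miR-200b-3p lies at chr1:1167160-1167181, miR-200a-3p begins 756 bases downstream at chr1:1167916-1167937, and miR-429 begins 1139 bases further, at chr1:1169055-1169076. RefSeq places these within the span of the non-coding gene MIR200BHG, while GENCODE 29 gives them no host gene. The chromosome 12 hairpins are shown because the ratios of their 3p arms lay on opposite sides of 1 in these libraries, with the mature arms RefSeq gives in capitals.
MIR200C: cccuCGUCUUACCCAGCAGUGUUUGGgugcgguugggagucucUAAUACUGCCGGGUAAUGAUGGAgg
MIR141: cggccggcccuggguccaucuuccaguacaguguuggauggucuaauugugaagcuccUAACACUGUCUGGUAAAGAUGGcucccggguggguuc

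The family had 548 of the 6553945 reads of the QKI5 library, against 1611 of the 23262340 reads of the GFP library. The GFP library was thus 3.55 times as deep. Levels are given in RPM, reads per 1000000 reads of the library, and 1 read stood for 0.153 RPM in the QKI5 library and for 0.0430 RPM in the GFP library. The labelled cell type was checked on 9 arms of the red cell and leukocyte miRNAs miR-451a, miR-144, miR-486, miR-142 and miR-223. Their summed level was 24214 RPM in QKI5 cells, against 23182 RPM in GFP cells, and most of it came from miR-142-3p and miR-223-3p. Of the 9 arms, 0 differed by 2-fold, while 21.8% of the 820 miRNAs with at least 10 reads in both libraries together were 2-fold higher and 10.0% lower. The log2 ratio was above 0 for 6 arms and below 0 for 3, the lowest being miR-144-3p, 1.87-fold lower with QKI5 (1.78 to 1.96). The whole miR-200 family summed to 83.6 RPM in QKI5 cells, against 69.3 RPM in GFP cells.

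The family was 1.21-fold higher in sum in the QKI5 library (95% counting interval 1.09 to 1.33), and this total joined members that differed in direction. The median ratio of the 820 miRNAs with at least 10 reads was 1.20, so the sum was at the level of the typical miRNA under this scaling. In bulk RNA, a change in the share of cells that make a miRNA and a change in its level per cell cannot be told apart. Of the 9 members, 8 had an RPM ratio above 1 and 1, miR-141-3p, had a ratio below 1. With a median of 1.20, most of the 820 miRNAs had a ratio above 1 as well under this scaling. The intervals of miR-200a-3p, miR-200c-5p, miR-141-5p and miR-200a-5p included 1. The counting interval lay wholly above 1 for 4 members, miR-200c-3p, miR-200b-3p, miR-429 and miR-200b-5p, and wholly below 1 for miR-141-3p. Among the 820 miRNAs with at least 10 reads in both libraries together, 33.9% had an interval wholly above 1 and 19.5% had one wholly below 1. Which side of 1 the family sum took depended on the scaling: it was 1.35 with each column divided by its own miRNA total, but 0.810 with TMM and 0.765 with median-of-ratios scaling. Left without miR-200c-3p, the sum of the other 8 members had a ratio of 0.952 (0.831 to 1.09), and without miR-141-3p a ratio of 1.80 (1.58 to 2.04).

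miR-200c-3p and miR-141-3p held most of the family's reads. miR-200c-3p, a repressor of ZEB1, was at 41.7 RPM in the QKI5 library (273 reads) and 25.2 RPM in the GFP library (586 reads). Its ratio was 1.65 (1.43 to 1.91). miR-141-3p, made from the neighbouring hairpin, was at 27.8 RPM in the QKI5 library (182 reads) and 38.2 RPM in the GFP library (889 reads), and was 1.38-fold lower with QKI5 (1.17 to 1.62). The order of these miRNAs was therefore reversed between the libraries: miR-200c-3p ranked 217 and miR-141-3p 254 among all miRNAs with QKI5, against 241 and 216 with GFP. By the mean of both libraries they were adjacent, at ranks 232 and 233. The miRNAs next to them in mean level had ratios on both sides of 1 as well. Above them, miR-320b had a ratio of 0.854 (0.730 to 0.996) and miR-151a-3p one of 4.69 (4.0 to 5.50). Below them, miR-487b-5p had a ratio of 0.897 (0.766 to 1.05) and miR-15a-3p one of 0.579 (0.487 to 0.686).

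**Figure D1:**
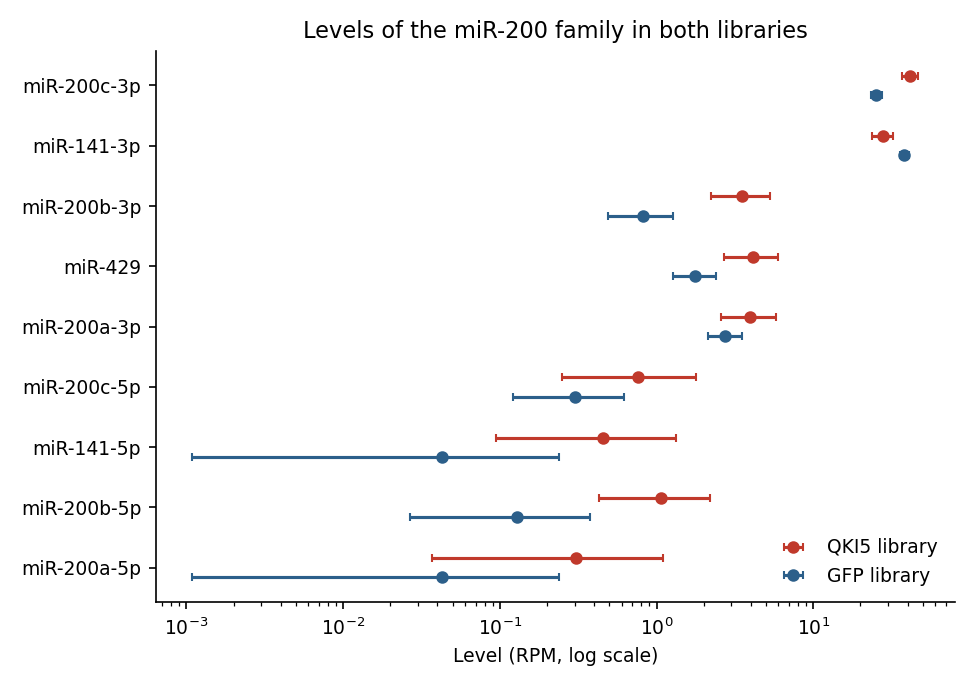
Level of each of the 9 members in RPM on a log scale, QKI5 library (red, upper point of each row) and GFP library (blue, lower point), with exact 95% Poisson intervals for counting error from 1 library each. miR-141-3p is the 1 member whose QKI5 point lies to the left of its GFP point, and the 5p arms rest on at most 7 reads in either library.

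The chromosome 1 members were scarcer, each below 5 RPM in both libraries. miR-200b-3p, which has the seed of miR-200c-3p, was at 3.51 RPM in the QKI5 library (23 reads) and 0.817 RPM in the GFP library (19 reads). Its ratio of 4.30 (2.24 to 8.34) was the 1 member ratio whose interval lay wholly beyond 2-fold. miR-429, whose hairpin has a single named arm, was at 4.12 RPM with QKI5 (27 reads) and 1.76 RPM with GFP (41 reads), a ratio of 2.34 (1.38 to 3.89). miR-200a-3p, with the seed of miR-141-3p, was at 3.97 RPM with QKI5 (26 reads) and 2.75 RPM with GFP (64 reads). Its ratio was 1.44 with an interval that included 1 (0.877 to 2.31), so a difference was not detectable at this depth. The log2 ratio of miR-200a-3p was 0.50 as deposited and below 0 with TMM (-0.05) and median-of-ratios scaling (-0.12). Among these 3 miRNAs the order of level was miR-429, miR-200a-3p and miR-200b-3p with QKI5, where their counting intervals overlapped, and miR-200a-3p, miR-429 and miR-200b-3p with GFP, where the intervals of neighbours in the order overlapped.

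The 5p arms, usually the discarded strand of these hairpins, were close to the limit of detection. miR-200b-5p had 7 reads in the QKI5 library (1.07 RPM) and 3 in the GFP library (0.129 RPM), a ratio of 8.28 (1.89 to 49.6). miR-200c-5p had 5 reads with QKI5 (0.763 RPM) and 7 with GFP (0.301 RPM), and its ratio of 2.54 had an interval that included 1 (0.634 to 9.28). miR-141-5p had 3 reads with QKI5 (0.458 RPM) and 1 with GFP (0.0430 RPM), a ratio of 10.6 (0.855 to 559). miR-200a-5p had 2 reads with QKI5 (0.305 RPM) and 1 with GFP (0.0430 RPM), a ratio of 7.10 (0.370 to 419). Ratios with 1 read in the GFP library say little beyond the interval. The 4 arms together had 17 reads with QKI5 and 12 with GFP, 5.03-fold higher in RPM (2.26 to 11.5).

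**Figure D2:**
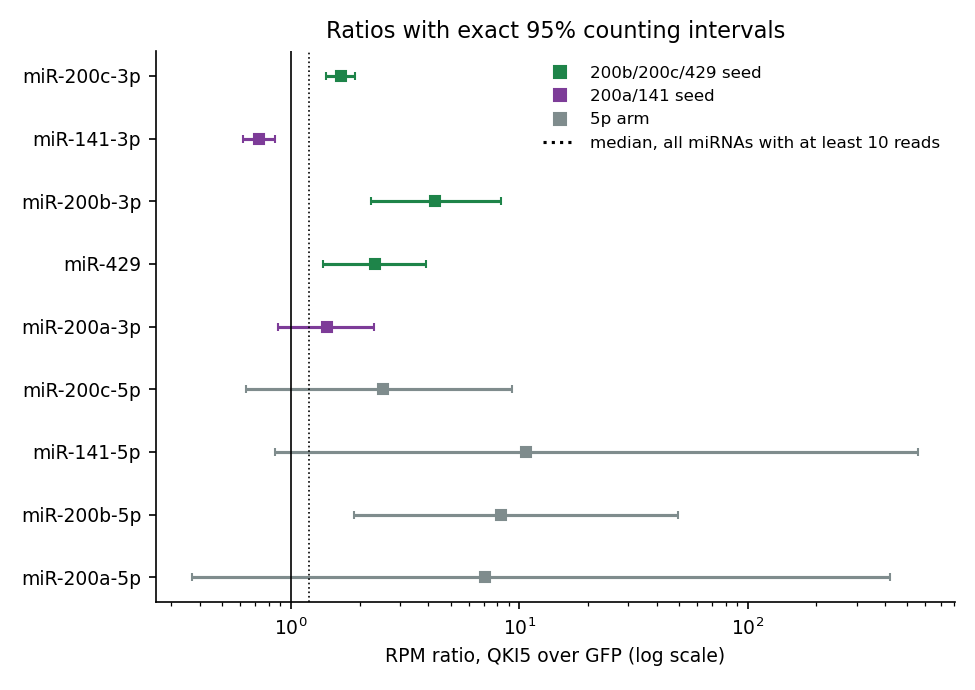
RPM ratio of the QKI5 over the GFP library for each member on a log scale, with exact conditional 95% counting intervals, coloured by seed group (green and purple) or as 5p arm (grey). The solid line marks 1 and the dotted line the median ratio of the 820 miRNAs with at least 10 reads, 1.20. The interval of miR-141-3p lies to the left of 1, and those of miR-200c-3p, miR-200b-3p, miR-429 and miR-200b-5p lie to the right of it.

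On the log2(RPM + 0.153) scale, 7 of the 9 members passed the minimum of 10 reads in both libraries together, and 4 of these 7 were at least 2-fold higher with QKI5 (miR-200b-5p, miR-200b-3p, miR-429 and miR-200c-5p) and 0 were 2-fold lower. Over all 820 miRNAs that passed, 21.8% exceeded 2-fold in the higher direction and 10.0% in the lower one. The log2 ratio of miR-200c-5p was 1.01, at the threshold. miR-200b-5p met the minimum with no read to spare, on 7 QKI5 reads against 3 GFP reads. It passed mainly through the library where it was higher, so its count as 2-fold higher is not independent of the filter. With a minimum of 30 reads, which no 5p arm reached, 2 of 5 members were 2-fold higher, against 19.4% of 594 miRNAs. miR-141-5p and miR-200a-5p did not reach 10 reads and passed 2-fold only without the minimum, where 6 of the 9 members were 2-fold higher against 23.8% of all 1995 miRNAs with a read. The count fell to 1 of 7, miR-200b-3p, with a pseudocount of 1 RPM, where 14.4% of the 820 miRNAs were 2-fold higher. With TMM scaling it fell to 2 of 7, miR-200b-3p and miR-200b-5p, against 10.0% of the 820. The median log2 ratio of the 9 members was 1.16, beside 0.12 for the 1995 miRNAs with a read. It was 0.26 for the 820 miRNAs, which do not include 2 of the 9 members. The median of the members weights every arm alike, including 5p arms with at most 7 reads in either library. The log2 ratio of the family sum was 0.27. An exact binomial test of the reads with Benjamini-Hochberg adjustment, which compares these libraries and not the conditions, called 5 of the 9 members and 21.4% of all miRNAs with a read. The called members were miR-200c-3p (adjusted p = 3.09e-10), miR-200b-3p (2.71e-05), miR-429 (0.00606) and miR-200b-5p (0.00891) as higher, and miR-141-3p (adjusted p = 0.000373) as lower.

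The split of 2-fold differences over all miRNAs moved with the scaling. With the deposited scaling 68.6% of the 2-fold differences were higher ones, with TMM 29.7%, with median-of-ratios scaling 24.8%, with quantile normalization 42.9% and with the 10 most abundant miRNAs left out of the totals 54.2%. TMM lowered the median log2 ratio of the miRNAs with at least 10 reads by a shift of -0.56, and median-of-ratios scaling by a shift of -0.63. Quantile normalization shifted that median by -0.36, leaving out the 10 most abundant miRNAs by -0.22 and division by the miRNA total by 0.15. Over the settings of scaling, pseudocount and GC content compared, the log2 ratio of miR-200c-3p ranged from 0.07 to 0.88, that of miR-200b-3p from 1.10 to 2.25, that of miR-429 from 0.54 to 1.49 and that of miR-141-3p from -1.11 to -0.24. The signs of these 4 were thus kept under those settings.

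**Figure D3:**
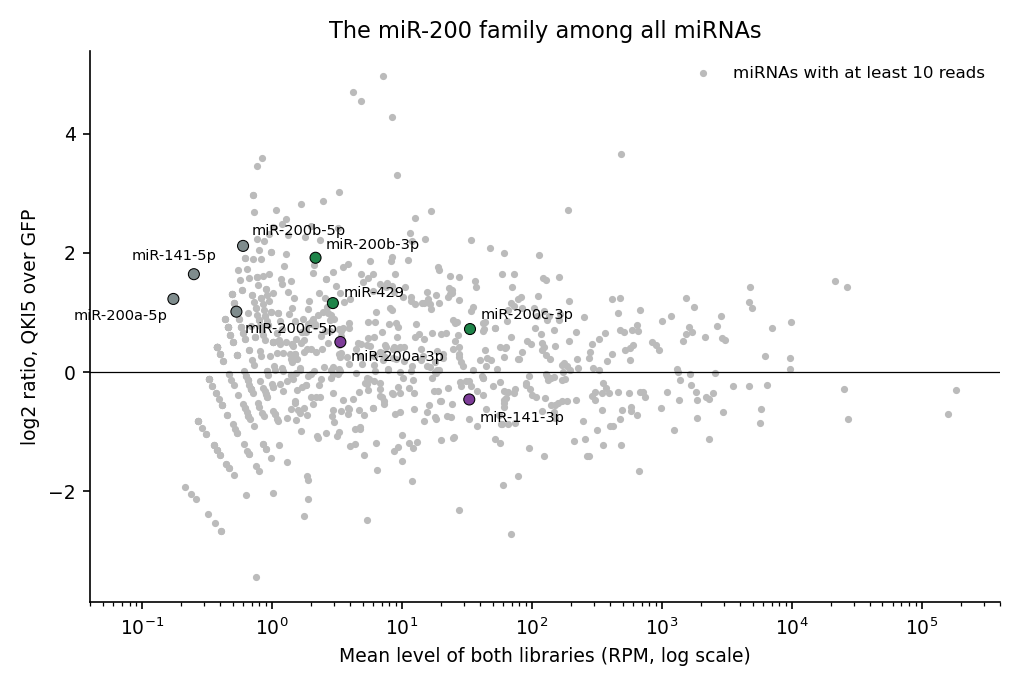
log2 ratio of the QKI5 over the GFP library against the mean level of both libraries (RPM, log scale) for the 820 miRNAs with at least 10 reads in both together (grey), with the 9 members as larger named points coloured by seed group as in the plot of member ratios. The 7 members with at least 10 reads lie within the cloud of miRNAs of their level. Of all 9, 8 lie above 0 and miR-141-3p below it.

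Comparisons within a library do not depend on how the columns are scaled. There were 1.5 reads of miR-200c-3p per read of miR-141-3p in QKI5 cells, against 0.659 in GFP cells, an odds ratio, the quotient of these values, of 2.28 (1.83 to 2.84). The GC content was 43.5% for miR-200c-3p and 40.9% for miR-141-3p, and with the trend of the ratio on GC content over all miRNAs removed the odds ratio was 2.17. miR-200c-3p thus made up 60.0% of the reads of this pair with QKI5 (exact binomial interval 55.3% to 64.5%) and 39.7% with GFP (37.2% to 42.3%). On chromosome 1 the miRNAs with the seed of miR-200c-3p also had more reads per read of the one with the seed of miR-141-3p in the QKI5 library than in the GFP library. There were 0.885 reads of miR-200b-3p per read of miR-200a-3p with QKI5 and 0.297 with GFP, an odds ratio of 2.98 (1.30 to 6.83). For miR-429 per miR-200a-3p the values were 1.04 with QKI5 and 0.641 with GFP, and the odds ratio of 1.62 had an interval that included 1 (0.788 to 3.33). Taken as a sum, miR-200b-3p and miR-429 had 1.92 reads per read of miR-200a-3p with QKI5 and 0.938 with GFP, an odds ratio of 2.05 (1.09 to 3.88), near the value on chromosome 12. miR-200b-3p and miR-200a-3p are near-identical to the more abundant miR-200c-3p and miR-141-3p. The assignment of shared reads therefore bears on this likeness, and its part was not tested.

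Summed by seed, miR-200b-3p, miR-200c-3p and miR-429 were at 49.3 RPM in QKI5 cells, against 27.8 RPM in GFP cells, 1.77-fold higher (1.55 to 2.03). miR-141-3p and miR-200a-3p summed to 31.7 RPM in QKI5 cells, against 41.0 RPM in GFP cells, 1.29-fold lower (1.11 to 1.51). The directions of both sums were kept under the 5 other scalings, but their sizes moved: the ratio of the first sum was between 1.13 and 1.98, and that of the second, 0.775 as deposited, between 0.491 and 0.863. The group of miR-200b, miR-200c and miR-429 held 60.8% of the reads of these 5 miRNAs in QKI5 cells (56.5% to 65.0%), against 40.4% in GFP cells (38.0% to 42.9%), an odds ratio of 2.29 (1.86 to 2.82). Most reads of these sums came from miR-200c-3p and miR-141-3p. Among the listed miRNAs with a RefSeq sequence, no other carried either of these seeds. The seed of miR-200c-5p occurs also in miR-550a-3p, which was at 150 RPM in QKI5 cells, against 400 RPM in GFP cells.

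**Figure D4:**
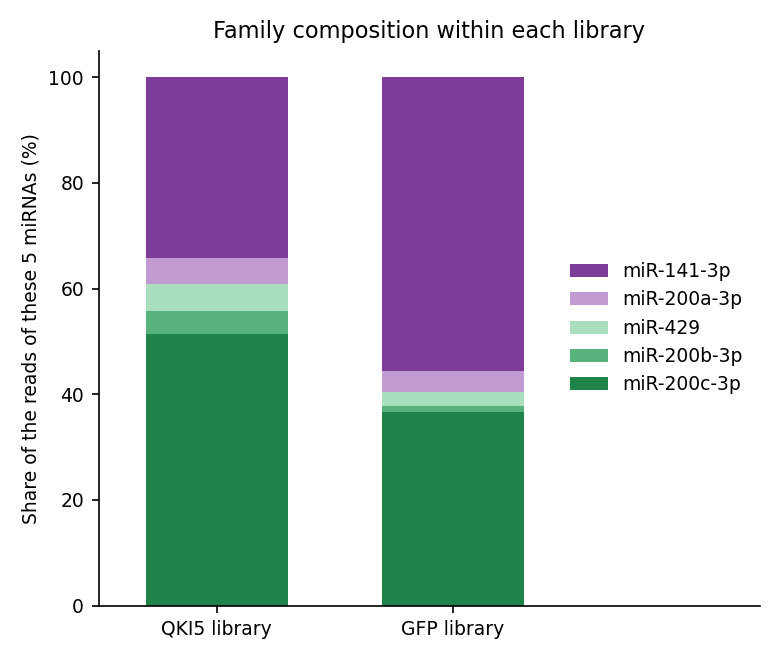
Share of each miRNA in the reads of miR-200c-3p, miR-200b-3p, miR-429, miR-200a-3p and miR-141-3p, in percent, in the QKI5 library (left bar) and the GFP library (right bar), with 1 library each. The green segments, which share a seed, reach 60.8% for QKI5, against 40.4% for GFP.

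The clusters differed as well. The 5 members on chromosome 1 summed to 13.0 RPM in QKI5 cells, against 5.50 RPM in GFP cells, 2.36-fold higher (1.77 to 3.12), and stayed higher under the 5 other scalings (1.49 to 2.63). The 4 members on chromosome 12 summed to 70.6 RPM in QKI5 cells, against 63.8 RPM in GFP cells, a ratio of 1.11 whose interval included 1 (0.996 to 1.23). The direction of the chromosome 12 sum turned with the scaling, with a ratio of 1.23 after division by the miRNA total, 0.743 with TMM and 0.702 with median-of-ratios scaling. Chromosome 1 members held 15.5% of the family's reads in QKI5 cells (12.6% to 18.8%), against 7.95% in GFP cells (6.67% to 9.38%), an odds ratio of 2.13 (1.57 to 2.88). The direction was the same inside each seed group. Reads of miR-200a-3p per read of miR-141-3p numbered 0.143 with QKI5 and 0.0720 with GFP, an odds ratio of 1.98 (1.17 to 3.27). Reads of miR-200b-3p and miR-429 per read of miR-200c-3p numbered 0.183 with QKI5 and 0.102 with GFP, an odds ratio of 1.79 (1.17 to 2.72). Since miR-200a-3p and miR-141-3p, and miR-200b-3p and miR-200c-3p, are near-identical, the assignment of shared reads bears on these ratios, and its part in them was not tested.

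Neighbouring hairpins on one strand were compared through their most abundant arm with a RefSeq sequence from a single locus. In 86 pairs these arms begin within 10000 bases of each other and have at least 10 reads in each library. Of these pairs, 33.7% had ratios at least 2-fold apart, with a median difference of 0.78 on the log2 scale. The difference between miR-200c-3p and miR-141-3p was 1.19 on that scale, and 24 of the 86 pairs, this one included, differed by as much. The difference was 1.58 between miR-200b-3p and miR-200a-3p and 0.70 between miR-200a-3p and miR-429. Some other hairpins were represented by their scarcer arm, such as miR-425-3p and miR-16-2-3p. Differences between arms therefore enter the 33.7% and the 24 pairs, which are not a background of main arms alone. Their part in these values was not tested.

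**Figure D5:**
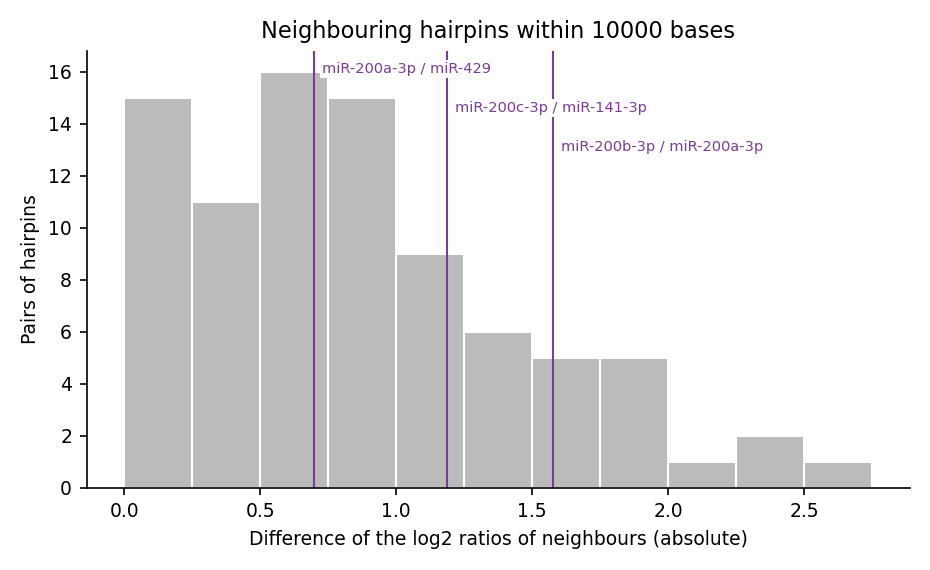
Number of neighbouring hairpin pairs (within 10000 bases on one strand, 86 pairs) by the absolute difference of their log2 ratios of QKI5 over GFP. Each hairpin is represented by its most abundant arm with a RefSeq sequence from a single locus and at least 10 reads in each library. Purple lines mark the 3 pairs of the family, at 0.70, 1.19 and 1.58, which lie within the range of the other pairs.

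No difference in the share of the 5p arm was detectable beyond counting error for miR-200c (odds ratio 1.53, 0.380 to 5.67), miR-200b (1.93, 0.370 to 13.0) or miR-200a (4.92, 0.242 to 295). miR-200c-5p made up 1.80% of the miR-200c reads with QKI5 (0.587% to 4.15%) and 1.18% with GFP (0.476% to 2.42%). miR-200b-5p made up 23.3% of the miR-200b reads with QKI5 (9.93% to 42.3%) and 13.6% with GFP (2.91% to 34.9%). miR-200a-5p made up 7.14% of the miR-200a reads with QKI5 (0.877% to 23.5%) and 1.54% with GFP (0.0389% to 8.28%). For miR-141 the share of the 5p arm was 1.62% with QKI5 (0.336% to 4.67%) and 0.112% with GFP (0.00284% to 0.624%), an odds ratio of 14.7 (1.16 to 770) that rests on 4 reads of miR-141-5p in all. In both libraries the largest share of 5p reads was that of miR-200b. No hairpin of the family had 10 reads of each arm in each library, so none entered the 123 hairpins for which arms could be compared, of which 35.8% had arm ratios at least 2-fold apart.

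QKI proteins bind RNA at a response element written ACUAAC or ACUAAU with a nearby UAAC or UAAU. Neither 6-base form occurs, on either strand, in the 4 family hairpins of the RefSeq table (MIR200B, MIR200C, MIR141 and MIR429), while each form occurs on the transcribed strand in 0.768% of its 1562 hairpins (on the other strand ACUAAC in 0.896% and ACUAAU in 0.960%). UAAU occurs in all 4 of these hairpins, against 15.2% of all hairpins, and UAAC in MIR141, against 12.5%. In MIR200B, MIR200C and MIR429 a UAAU opens the mature sequence and overlaps the seed, as UAAC does in MIR141, whose UAAU lies outside the mature 3p arm. MIR200B and MIR200C each hold a further UAAU inside the mature 3p arm, outside the seed. No MIR200A hairpin was available, so it was not searched. All 5 of the mature sequences listed first above start with UAAU or UAAC, and they are among the 20 of 2370 RefSeq mature miRNAs that do (0.844%). Each of the 5 is a U followed by one of the seeds of the family, so this start is fixed by membership. The same holds for the matches that open the mature sequences in the hairpins, and no enrichment can be read from these shares. On the other strand UAAC occurs in 1 of the 4 hairpins, against 15.7% of all, and UAAU in 0, against 15.0%. Each 4-base form is also the end of the 6-base form with the same last letter. No binding was measured here, and a match of letters is not a site.

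Other epithelial miRNAs were set beside the family. The list held 12 arms of miR-205, miR-203a, miR-203b, miR-183, miR-96, miR-182 and miR-375, of which 11 had a read. Its summed level was 482 RPM in QKI5 cells, against 382 RPM in GFP cells. Of the 9 arms with at least 10 reads, 2 were at least 2-fold higher on the log2(RPM + 0.153) scale. On that scale 1, miR-182-3p, was at least 2-fold lower. Over all 820 miRNAs with at least 10 reads the shares were 21.8% higher and 10.0% lower. With 0 reads of miR-182-3p in the QKI5 library, the size of its log2 ratio depends on the pseudocount. The median log2 ratio of the 11 detected arms was 0.46. The most abundant were miR-183-5p, miR-96-5p and miR-182-5p, made from one cluster known for its role in sensory epithelia. miR-183-5p was at 185 RPM in QKI5 cells, against 114 RPM in GFP cells (ratio 1.62, 1.52 to 1.74), miR-96-5p at 145 RPM in QKI5 cells, against 153 RPM in GFP cells (0.947, 0.881 to 1.02) and miR-182-5p at 135 RPM in QKI5 cells, against 104 RPM in GFP cells (1.30, 1.20 to 1.40). The defining miRNAs of squamous epithelium and skin were near the limit of detection. miR-205-5p had 21 reads in each library, 3.20 RPM in QKI5 cells, against 0.903 RPM in GFP cells, a ratio of 3.55 (1.84 to 6.83). miR-203a had 9 reads with QKI5 (1.37 RPM) and 11 with GFP (0.473 RPM), a ratio of 2.90 (1.06 to 7.71), and miR-203b-3p had 0 reads in both. miR-182-3p had 0 reads with QKI5 and 15 reads with GFP (0.645 RPM). Set against a floor of 3 reads for the QKI5 library (0.458 RPM) it was at least 1.41-fold lower, while the exact counting interval allowed a difference as small as 1.01-fold. miR-375, which is known to repress QKI in epithelial cells, was at 8.54 RPM in QKI5 cells, against 6.19 RPM in GFP cells, a ratio of 1.38 whose interval included 1 (0.995 to 1.89). The part of these miRNAs in the values of the family was not tested.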

How the data were processed

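Small RNA from K562 cells was isolated with a miRNA kit, made into libraries with an Ion Torrent kit and read on an Ion Proton instrument, per the labels' protocols. Bowtie 0.12.3 and hg19 are listed in the submitters' processing notes, without their roles. Details not given in the sources used here include the miRNA annotation, the mismatches allowed, strand, the placing of reads that match several miRNAs and the reads counted in a library total. The authors deposited RPM (reads per 1000000 reads of the library), although their table is titled RPKM: in each column 100.0% of the values above 0 were whole multiples of 1 step within 0.1 of a read. One step is 1 read, which gave the reads used here.

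Ratios are QKI5 over GFP, as plain RPM ratios with exact conditional binomial (Clopper-Pearson) 95% intervals. The 2-fold counts used log2(RPM + 0.153), the pseudocount being the larger of the smallest values above 0. Comparisons of 2 miRNAs inside each library used conditional odds ratios with exact intervals. Intervals cover counting error only, because each group has 1 library. They treat reads as independent molecules, which reads from PCR are not. The labels record no molecular identifiers, so the intervals may be too narrow even for counting error. With 1 library per group no p-value for the treatment exists. An exact binomial test of the reads with Benjamini-Hochberg adjustment at 0.05 served as an alternative and compares these 2 libraries, not the conditions. The members and lists were chosen with earlier results of these data known. The named miRNAs were all members, the 3 most abundant other epithelial miRNAs and any of those at least 2-fold different with at least 10 reads, the neighbours in level of miR-200c-3p and miR-141-3p, and miRNAs sharing a member's seed; miR-375 and miR-203b-3p were named after their values were seen. Alternatives covered pseudocount, scaling, read minimum, threshold, GC content and depth. Statistical functions were tested on simulated data. RefSeq sequences were matched by name to 1946 of the 2218 miRNAs. Sequences and positions are RefSeq's on GRCh38.p14 and host genes are from GENCODE 29, while the deposited table has no positions. Python 3.11.15, scipy 1.17.1, edgeR 4.0.16 (scaling factors only) and DESeq2 1.42.0 (scaling factors only) were used.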

Additional observations from a re-analysis of the deposited data

How the results depend on the processing

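With 1 library per group, no replicate could be left out. No paired analysis was possible because each group has a single library. The number of members at least 2-fold higher, 4 of 7, became 1 with a pseudocount of 1 RPM or one 10 times as large, and 2 with TMM, median-of-ratios or quantile scaling, with the 10 most abundant miRNAs left out of the total, with GFP reads thinned to the QKI5 depth (of 5) or with a minimum of 30 reads (of 5). The number 2-fold lower, 0, became 1 (miR-141-3p) with TMM and median-of-ratios scaling, and the exact binomial test also called 1 lower. The family sum, a ratio of 1.21, was 1.35 rescaled to the listed miRNAs, 0.810 with TMM, 0.765 with median-of-ratios, 1.01 with quantile scaling, 1.04 without the 10 most abundant in the total and 0.952 without miR-200c-3p; the direction of the family sum therefore rests on the scaling and on miR-200c-3p. The odds ratio of miR-200c-3p against miR-141-3p does not depend on scaling and was 2.17 with the GC trend removed, an alternative for it chosen after seeing the data.

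Over all 820 miRNAs with at least 10 reads, 179 were 2-fold higher and 82 were 2-fold lower. These counts became 118 and 37 with 1 RPM, and 100 and 32 with the pseudocount 10 times as large. They became 82 and 194 with TMM, 71 and 215 with median-of-ratios, and 108 and 144 with quantile scaling. Leaving the 10 most abundant miRNAs out of the total gave 142 and 120, and a threshold of 1.5-fold gave 300 and 166. Without the read minimum they were 475 and 145 of 1995, and at 30 reads 115 and 53 of 594. Thinning gave 163 and 53 of 669, and the exact binomial test called 290 and 136 of 1995. Within the level range of the members, a set chosen after seeing the data, 24.3% of 589 miRNAs were 2-fold higher and 11.4% lower. Reads of the 5p arms, at most 7 per library, limit what can be said of them. The cause of these changes was not tested.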
